A study of Mus musculus with 2 samples.

Results

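Primitive-type red cells were singled out by their globin mix in droplet libraries of embryonic mouse heart. The members were chosen by measured values: a barcode (the tag of one droplet) needed at least 1000 UMIs (unique molecular identifiers, each standing for one captured RNA molecule) and at least 50% of them from genes whose symbol starts with Hba- or Hbb-. It was of the primitive type when Hbb-y and Hbb-bh1 made up at least 0.5 of the UMIs of Hbb-y, Hbb-bh1, Hbb-bs and Hbb-bt. By this rule 3884 of 12656 barcodes were members, 1809 of 5860 in the control and 2075 of 6796 in the mutant. Haemoglobin-rich barcodes below 0.2 were of the definitive type, 20 in the control and 30 in the mutant, and 2 and 9 barcodes fell between the types.

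The hearts were taken at E12.5, digested with TrypLE and run on a 10X Genomics Chromium kit, given as v2 in the labels. One library was of genotype Tbx18-Cre; YFP/+ (control). The other carried the same Cre and reporter with Prmt1 fl/fl, floxed alleles of a protein arginine methyltransferase (mutant). The Cre is driven by Tbx18, a gene of the epicardium, and Tbx18 itself had 0 UMIs in the control members and in the mutant members under 5000 UMIs. In mutant members of at least 5000 UMIs Tbx18 was above 0, and the 6 epicardial markers there summed to 4 UMIs. How many embryos were pooled, and whether cells were sorted, is not stated in the labels. With 1 library per genotype there is no replicate error and no test, and genotype cannot be told apart from embryo, stage within the day, digestion or library. Every interval printed is an exact 95% interval that covers counting error only, and it is narrower than the spread between animals would be.

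Primitive red cells arise in the yolk sac, enter the circulation with a nucleus and mature as a cohort in the bloodstream. Definitive red cells of the fetus come mainly from the liver and lose their nucleus before or as they enter the blood. In the mouse, primitive cells make the zeta chain (Hba-x) and the embryonic beta-type chains (Hbb-bh1 and Hbb-y) beside the adult alpha chain, and as they mature zeta gives way to alpha and Hbb-bh1 to Hbb-y.

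The genes that set the mix lie in the alpha cluster on chromosome 11 and the beta cluster on chromosome 7. In GRCm38, Hba-x spans chr11:32276400-32278116 and Hba-a1 and Hba-a2 follow it on the plus strand, while Hbb-y spans chr7:103851749-103853216 on the minus strand. To show what stands in front of an embryonic and 2 adult globin genes, the bases from 80 to 11 before the start are printed 5′ to 3′ on the gene's strand (RefSeq, GRCm38.p6), with matches of CCAAT and TATAA in capitals. Those windows are chr7:103853218-103853287, chr7:103827939-103828008 and chr11:32296412-32296481.
Hbb-y: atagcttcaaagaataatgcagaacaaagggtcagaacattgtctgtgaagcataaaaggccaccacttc
Hbb-bs: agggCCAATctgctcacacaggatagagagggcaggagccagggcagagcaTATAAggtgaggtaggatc
Hba-a2: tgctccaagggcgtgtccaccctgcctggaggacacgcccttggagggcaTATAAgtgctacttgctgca
The search covered the boxes CCAAT and TATAA, the letters CACCC and the letters GATAA on both strands, and no 2 of these motifs overlap in the printed windows. None of the 4 was found in the Hbb-y window. The Hbb-bs window held CCAAT and TATAA, and the Hba-a2 window held TATAA and, from 63 to 59 bases before the start, CACCC. The windows of Hba-x, Hba-a1 and Hbb-bt overlap an annotated untranslated region and are not printed. All of them held TATAA, in embryonic Hba-x from 28 to 24 bases before the start. The lack of TATAA in the Hbb-y window is thus not a trait of embryonic globin genes as a set. Of 32851 promoter windows of that length, 14.2% held CCAAT, 8.17% TATAA, 20.2% CACCC and 6.07% GATAA. These are matches of letters, not measured binding sites.

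The 2 libraries were similar in size, with 49323576 UMIs in the control and 48527471 in the mutant, but the deposited control matrix was unfiltered while the mutant matrix listed 7181 barcodes with no fewer than 500 UMIs. The 1000 UMI minimum lies above that limit. One barcode sequence was a member in both libraries, and 16 were shared among all barcodes with at least 1000 UMIs. No doublet caller was run. Among members, the 8 cardiomyocyte markers summed to 1323 CPM in the control and 942 in the mutant (counts per 1000000 non-haemoglobin UMIs, the scale used for every gene but the globins below), against 46760 and 40424 in barcodes with under 10% haemoglobin. In control droplets of 1 to 50 UMIs, which hold mostly free RNA, they summed to 32196 CPM. Epicardial, endothelial, immune and megakaryocyte markers each summed to under 22 CPM in both libraries, with Pecam1, Csf1r, Ptprc, Ppbp, Krt19 and Msln at 0 in both. The 7 mesenchymal markers summed to 156 and 111 CPM in members, against 315 and 425 CPM in barcodes with under 10% haemoglobin.

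Primitive-type barcodes made up nearly all haemoglobin-rich droplets of these hearts. Their share of the haemoglobin-rich barcodes was 98.8% (98.2 to 99.2) in the control and 98.2% (97.5 to 98.7) in the mutant. The difference, mutant minus control, was -0.64 points with a counting interval of -1.42 to 0.14. With the primitive type beginning at a mix of 0.8, the shares were 83.3% and 67.2%. As a share of all barcodes with at least 1000 UMIs, members were 30.9% (29.7 to 32.1) and 30.5% (29.4 to 31.6). Definitive-type barcodes were 1.09% (0.668 to 1.68) and 1.42% (0.959 to 2.02) of the haemoglobin-rich ones.

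Few barcodes sat near the globin-mix limit of 0.5. The lowest member share of embryonic beta-type globin was 0.503 in the control and 0.502 in the mutant, and the highest value just outside was 0.487 and 0.478. Only 6 control and 17 mutant barcodes lay between 0.4 and 0.6. The highest definitive-type values were 0.014 and 0.097. The haemoglobin limit cut through a sparser tail in the control than in the mutant: 58 and 231 members had 50 to 55% haemoglobin, while 43 and 133 barcodes lay at 45 to 50%, just outside. Many members lay close to the UMI minimum, with 880 control and 733 mutant ones at 1000 to 1500 UMIs. These values chose the members and are given as a description.

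Hba-x, which the rule did not use beyond the haemoglobin total, separated the types in both libraries. It encodes zeta, the embryonic alpha-type chain. In the control, Hba-x gave 25.4% (25.3 to 25.4) of the alpha-type UMIs of the members, that is 482771 UMIs, against 0.0482% (5 UMIs) in the definitive type. In the mutant it gave 34.1% against 0.0965%. Per barcode, the Hba-x share of the control members ran from 3.91% to 60.1% with a median of 24.5%, and that of the mutant members from 1.61% to 75.3% with a median of 34.2%. The highest definitive-type barcode reached 0.529% in the control and 1.04% in the mutant. The 20 control and 30 mutant definitive-type barcodes thus did not overlap with members in this share. The barcodes between the types, at 5.48 to 12.2% in the control and 10.6 to 23.6% in the mutant, lay inside the member ranges. Hba-x counts toward the haemoglobin limit and is itself a marker of the primitive type, so these values are a description and not separate support for the label.

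**Figure D1:**
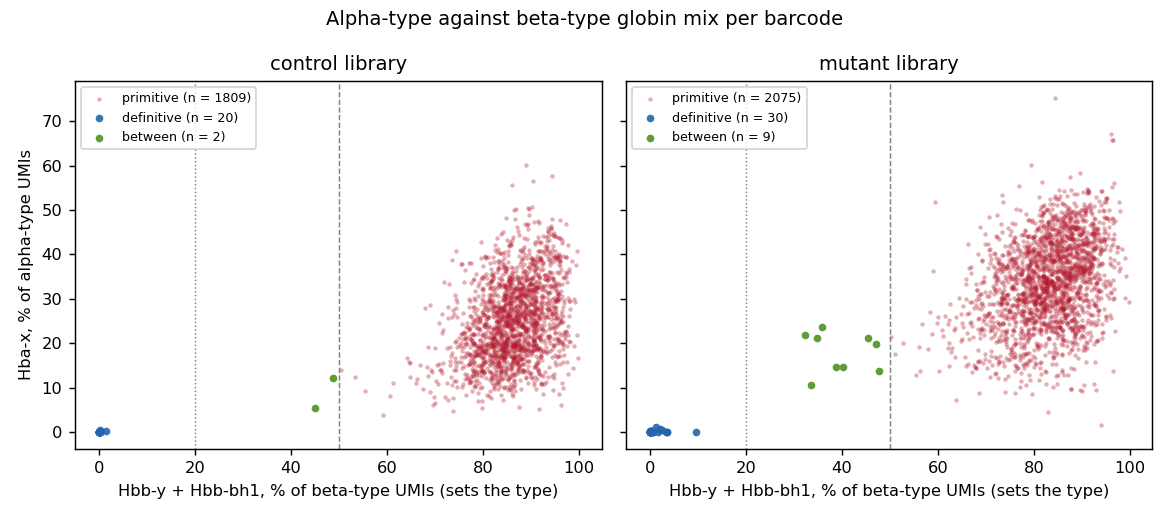
Each point is one haemoglobin-rich barcode, with Hbb-y plus Hbb-bh1 as a percentage of beta-type UMIs on the x axis and Hba-x as a percentage of alpha-type UMIs on the y axis, per library. Members lie right of 50% and span 3.91 to 60.1% Hba-x in the control and 1.61 to 75.3% in the mutant, while definitive-type barcodes lie near 0 on both axes.

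Summed over members, the other globins followed one order of abundance in both libraries. Among alpha-type UMIs, Hba-a1 gave 51.5% in the control and 47.5% in the mutant, and Hba-a2 gave 23.1% and 18.4%. Those 2 adult alpha genes are near-identical copies, so the split between them is uncertain. Among beta-type UMIs, Hbb-y gave 83.6% and 79.3%, Hbb-bs 11.2% and 9.11%, Hbb-bt 4.05% and 8.11%, and Hbb-bh1 1.11% and 3.48%. In mutant members of at least 5000 UMIs the adult pair had the other order, with Hbb-bt at 9.81% and Hbb-bs at 7.12%. Hbb-bh2 had 46 and 42 UMIs in all. At E12.5 the members thus carried the later of the 2 embryonic beta-type transcripts, Hbb-y, at many times the level of the earlier one, Hbb-bh1.

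Adult beta-type transcripts were present in almost every member, not in a subset. Hbb-bs was at 0 in 3 of 1809 control and 35 of 2075 mutant members, with medians of 61 and 52 UMIs per barcode. Hbb-bt, the near-identical neighbour of Hbb-bs, was at 0 in 31 and 5. Beside these counts, the near-empty control droplets carried 7.47% haemoglobin UMIs with an embryonic beta-type share of 85.0% and an Hba-x share of 29.2% of alpha-type UMIs. The part of free RNA in the members' adult transcript was not tested. The minor alpha-type genes Hbq1b and Hbq1a stood at 785 and 163 CPM in control members and 872 and 99.8 CPM in mutant members.

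The libraries differed in both embryonic marks that the rule did not fix. The Hba-x share was 25.4% in the control and 34.1% in the mutant, and Hbb-bh1 as a share of Hbb-bh1 plus Hbb-y was 1.31% (1.30 to 1.33) and 4.20% (4.18 to 4.23). Both differences held at either depth: among members under 5000 UMIs the Hba-x share was 24.6% and 33.4% and the Hbb-bh1 share 1.60% and 5.51%, and among members of at least 5000 UMIs they were 26.2% and 34.9%, and 1.13% and 3.42%. The distributions overlapped widely, with lower and upper quartiles of the Hba-x share at 18.4 to 31.2% in the control and 27.0 to 40.9% in the mutant. The Hbb-bt share of adult beta-type UMIs also differed, at 26.6% and 47.1%, and was 14.3% and 30% among members under 5000 UMIs and 33.4% and 57.9% above. In the definitive type it was 11% and 25.5%, and 10.6% and 15.6% in its barcodes under 5000 UMIs. Hbb-bt counts are uncertain because of its near-identical copy.

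Members spanned a wide range of depth. The median member had 1516 UMIs and 181 genes in the control and 1688 UMIs and 239 genes in the mutant. At least 5000 UMIs were found in 174 control members (9.62%) and 196 mutant members (9.45%), with medians of 14655 and 14680 UMIs. They carried 50.8% and 48.0% of all member UMIs. Haemoglobin made up a median of 85.3% and 81.1% of UMIs in them, against 73.3% and 66.1% in the shallower members. The 5000 UMI limit was set after the depths were seen, and 17 control and 32 mutant members lay just below it, at 4000 to 5000 UMIs.

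**Figure D2:**
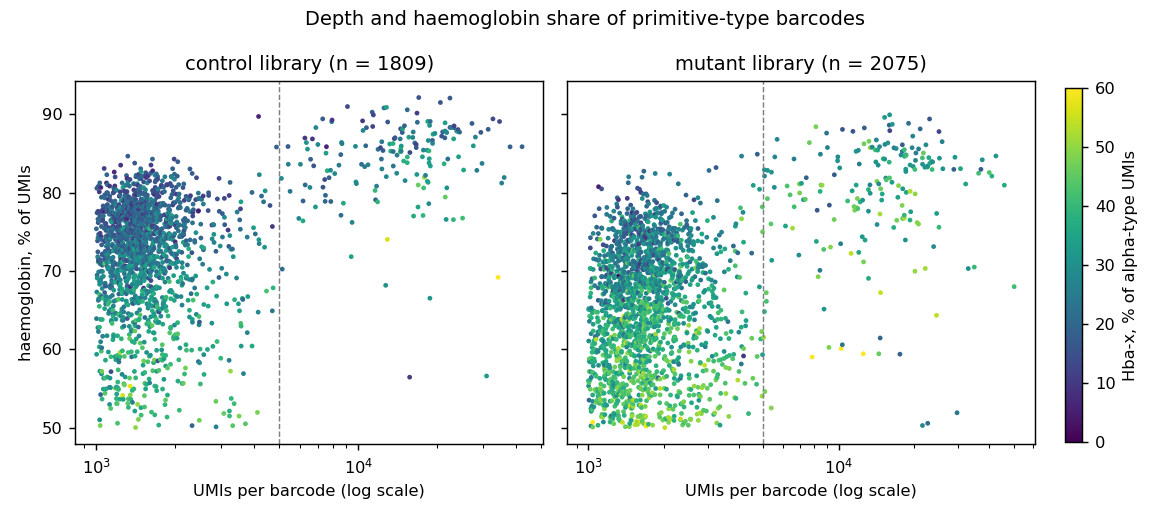
Each point is one primitive-type barcode, with total UMIs on a log x axis, the haemoglobin share of UMIs in percent on the y axis and the Hba-x share of alpha-type UMIs as colour, per library. Most members lie near 1000 to 3000 UMIs and those above 5000 UMIs have a higher haemoglobin share.

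Members of at least 5000 UMIs, called deep below, had more RNA of red cell transcription factors, membrane proteins and maturation genes among their non-haemoglobin UMIs than the shallow ones. Alas2, the erythroid enzyme of the first step of haem synthesis, stood at 6743 CPM in deep and 767 CPM in shallow control members, an 8.79-fold difference (8.04 to 9.63). In the mutant it stood at 6219 and 763 CPM, 8.15-fold. Transcription factors of the red cell lineage were higher by more than 1.5-fold in deep members for 16 of 16 measured in the control and 19 of 19 in the mutant. Over all genes with at least 20 CPM, 55.8% and 57.1% were that much higher and 14.9% and 11% that much lower. The list's share is above this large background. A gene near the minimum can pass it through the deep group alone, so counts here and in the lists below lean to higher. With 30 UMIs over both groups also required, 46.2% and 49.5% of all genes were higher and 19.3% and 13.2% lower. The list counts were taken at 20 CPM alone, so these stricter shares are not a matched background for them. The list's median log2 difference was 1.42 and 1.45, against 0.78 and 0.79 for all genes.

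Membrane and skeleton genes showed the same direction in 18 of 24 and 18 of 25 measured members, with medians of 1.22 and 1.26. Slc4a1, the anion exchanger band 3, was at 1489 CPM in deep and 271 CPM in shallow control members, and at 1348 and 275 CPM in the mutant. Terminal maturation genes were higher in 19 of 23 and 19 of 24, with Bpgm, which makes the haemoglobin ligand 2,3-bisphosphoglycerate, at 4641 and 846 CPM in the control and 4786 and 885 CPM in the mutant. Of the haem synthesis list, 9 of 15 were higher and 2 lower in the control, and 10 and 2 in the mutant, near the shares of all genes (55.8% and 57.1% higher). Fech, which inserts the iron, was at 2115 and 331 CPM in the control, while Iscu, an iron-sulphur scaffold, went the other way at 260 and 775 CPM.

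Among the genes named by rule for their difference in both libraries, Eef1a1, the main translation elongation factor, was at 5539 CPM in deep and 499 CPM in shallow control members and at 6282 and 569 CPM in the mutant, 11.1-fold and 11-fold. Hsd3b6, a steroid dehydrogenase gene, was at 5377 and 662 CPM in the control and 6874 and 969 CPM in the mutant. Pim1, a survival kinase, was 11.4-fold and 9.29-fold higher, and Ctsb, a lysosomal protease, 10.3-fold and 9.59-fold. The nuclear RNA Neat1 was 11-fold and 10.6-fold higher, at 443 against 40.2 CPM in the control.

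Pttg1, Ndufa3, Elob, Fth1 and Gpx1 were among the genes higher in shallow members. Pttg1, securin, was at 1082 CPM in shallow and 211 CPM in deep control members and at 1885 and 329 CPM in the mutant. Ndufa3, a subunit of respiratory complex I, was at 3839 and 759 CPM in the control, and Elob, elongin B, at 10345 and 2712 CPM. The ferritin genes split: Fth1, the heavy chain, was at 155324 CPM in shallow and 85734 CPM in deep control members, while Ftl1, the light chain, was at 15929 and 40532 CPM. Gpx1, glutathione peroxidase, was at 56242 and 26163 CPM. The mutant had the same order for each of these genes.

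The balance between the deep and shallow members depended on the total used. Scaled to all UMIs, haemoglobin included, 213 genes were higher and 531 lower in deep control members (28.6% of those past 1.5-fold were higher, against 78.9% by non-haemoglobin UMIs), and 302 and 583 in the mutant (34.1% against 83.8%). The all-gene median moved from 0.78 to -0.62 and from 0.79 to -0.45 on the log2 scale. The transcription factor, membrane, terminal maturation and haem lists kept a positive median under both scalings in both libraries. Summed mesenchymal markers were at 371 and 291 CPM in deep against 32.2 and 12.9 CPM in shallow members, and the part of other cells' RNA in the depth differences was not tested.

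Members varied in Hba-x share far beyond counting error, and a set of other features varied with it. Among members under 5000 UMIs the SD of the Hba-x share over barcodes was 8.91 points in the control and 9.62 in the mutant, while counting alone would give 1.81 and 1.88 points. Over all members, the Hba-x share had a Spearman correlation with the Hbb-bh1 share of 0.52 in the control (1809 barcodes) and 0.57 in the mutant (2075 barcodes). It ran against the haemoglobin share (-0.54 and -0.56) and against the Malat1 share of non-haemoglobin UMIs (-0.55 and -0.56), and had little relation to total UMIs (0.10 and 0.05). These correlations describe barcodes of one library that share its depth and free RNA, and barcodes are not replicates.

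Split into quartiles by Hba-x share among members under 5000 UMIs, the gradient ran in steps. In the control, from the lowest to the highest quartile, the median Hbb-bh1 share was 0.525%, 1.01%, 1.41% and 2.33%, and the median haemoglobin share was 77.0%, 74.6%, 72.4% and 65.0%. Genes detected went from 138 to 244. Median total UMIs were 1438 and 1532, but the non-haemoglobin UMIs of the 409 barcodes of each end summed to 147442 and 248946, and in the mutant to 224382 and 360845 over 470 barcodes each. In the mutant the Hbb-bh1 share was 2.22%, 4.14%, 5.66% and 8.38%, the haemoglobin share went from 72.1% to 57.8%, and genes detected from 176 to 287. Malat1, a nuclear-retained long RNA, ran in the opposite order, from 12.7% to 5.22% of non-haemoglobin UMIs in the control and from 11% to 4.24% in the mutant. Ribosomal protein genes went from 11.9% to 19.2% and from 13.3% to 19.8%. The medians of Hbb-bh1, haemoglobin, genes detected, Malat1 and ribosomal protein genes kept their order from quartile to quartile in both libraries. Median total UMIs did not.

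**Figure D3:**
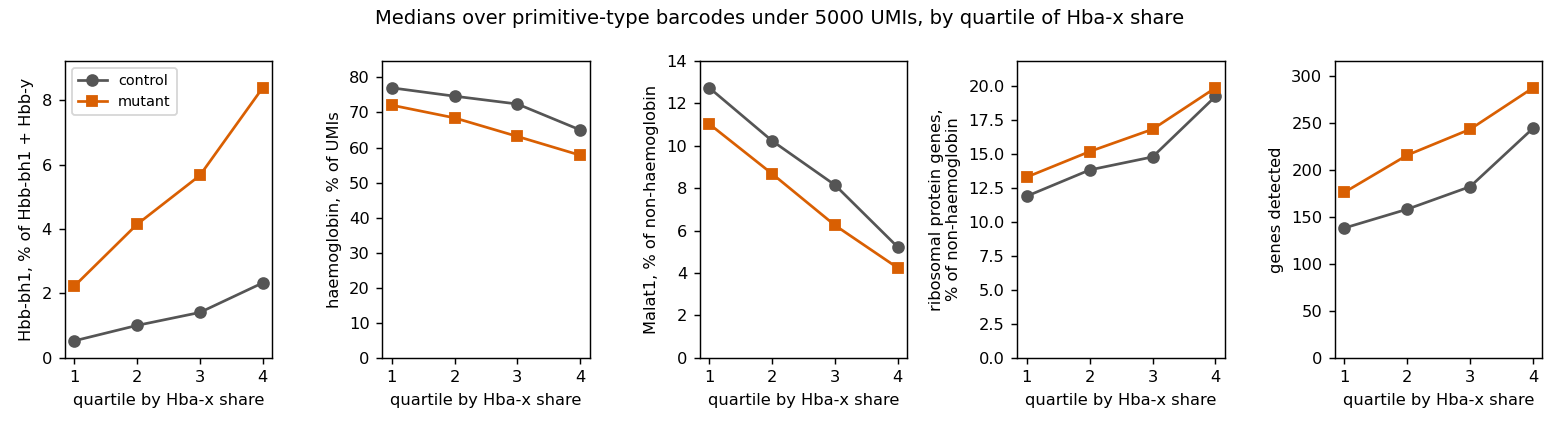
Medians over primitive-type barcodes under 5000 UMIs are plotted for each quartile of the Hba-x share (1 is lowest, 4 highest; 408 to 409 control and 469 to 470 mutant barcodes each), one panel per measure with units on the y axes. Hbb-bh1, ribosomal protein share and genes detected are higher in each successive quartile, and haemoglobin and Malat1 lower, in both libraries.

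Cell division genes were among those furthest apart between the highest and the lowest quartile. Of the measured G2/M genes, 17 of 18 in the control and 22 of 23 in the mutant were more than 1.5-fold higher in the highest quartile, with medians of 2.21 and 2.29 on the log2 scale. Over all genes with at least 20 CPM, 47.9% and 48.9% were that much higher and 17.3% and 13.2% that much lower, with medians of 0.53 and 0.56. Cenpa and Cenpw in the control, and Cenpw in the mutant, passed that minimum through the highest quartile alone. Other G2/M genes may have done so too, so the counts of G2/M genes lean to higher in both libraries. With 30 UMIs over both quartiles also required, 51.6% and 48.6% of all genes were higher and 11.5% and 10.4% lower. The G2/M counts were taken at 20 CPM alone, so these stricter shares are not a matched background for them. Cenpa, the centromeric histone H3, was at 225 CPM (56 UMIs) in the highest and 6.78 CPM (1 UMI) in the lowest control quartile, a ratio of 33.2 with an interval of 5.71 to 1333. In the mutant it was at 488 and 49.0 CPM, 9.95-fold (5.43 to 20.3). Ube2c, the ubiquitin-conjugating enzyme of the anaphase complex, was at 269 and 20.3 CPM in the control and 441 and 49.0 CPM in the mutant. Cenpw, a kinetochore protein, was at 149 against 6.78 CPM (1 UMI) and 227 against 8.91 CPM (2 UMIs).

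Single haem synthesis genes ran in both directions along this gradient. In the control 11 of 15, and in the mutant 7 of 15, were higher in the highest quartile, beside 47.9% and 48.9% of all genes. Alad, the second enzyme of the pathway, was at 1056 CPM in the highest and 170 CPM in the lowest control quartile, and at 1596 and 397 CPM in the mutant. Tmem14c, a mitochondrial porphyrin transporter, was at 599 and 142 CPM and at 1250 and 227 CPM. Alas2 ran the other way, at 607 and 855 CPM (ratio 0.71, 0.557 to 0.906) and at 640 and 865 CPM. Icam4, a red cell adhesion protein, was 8.59-fold (3.18 to 32.6) and 8.32-fold (4.07 to 19.8) higher in the highest quartile.

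The lowest quartile had its own genes. Mkrn1, a ubiquitin ligase, was at 3913 CPM in the lowest and 1137 CPM in the highest control quartile and at 3080 and 712 CPM in the mutant. Nudt4, an inositol polyphosphate phosphatase, was at 13788 and 4037 CPM, and Ftl1 at 23413 and 9689 CPM. With at least 80% haemoglobin the mutant log2 ratio of Nudt4 was 1.39, higher in the highest quartile. Malat1 was 0.388 (0.380 to 0.397) and 0.384 (0.376 to 0.392) times its level in the lowest quartile. Scaled to all UMIs, the balance shifted further to the highest quartile: 832 genes were higher and 37 lower in the control (95.7% higher, against 73.5%) and 928 and 34 in the mutant (96.5% against 78.7%). Under that scaling the medians of the transcription factor, iron, redox, membrane and terminal maturation lists changed sign in 1 or both libraries, so no direction is given for them.

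Correlations were also taken gene by gene over all members, without any split. They use the same Hba-x share and most of the same barcodes as the quartiles, so they are not separate support. Only genes with a UMI in at least 20% of members in both libraries were ranked. Among 254 genes ranked over all members, those with the highest correlation with the Hba-x share in the weaker of the 2 libraries encode ribosomal proteins, among them Rps27a (0.38 in the control and 0.40 in the mutant), Rpl13 (0.33 and 0.35), Rps16 (0.33 and 0.34) and Rpl11 (0.35 and 0.32). Malat1, Ftl1 (-0.40 and -0.43), Nudt4 (-0.41 and -0.37), Gm42418 (-0.32 and -0.33) and Fth1 (-0.28 in both) had the lowest.

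A small set of members carried several G2/M transcripts at a time. Under a rule chosen after the data were seen (at least 3 G2/M UMIs making up 0.5% of non-haemoglobin UMIs), it held 38 control members (2.10%) and 165 mutant members (7.95%). Their median Hba-x share was 37.9% and 41.7%, against 24.2% and 33.5% in the other members, and their haemoglobin share 56.9% and 56.3% against 74.1% and 67.9%. They were also deeper, at medians of 3178 and 2978 UMIs against 1512 and 1658, and the minimum of 3 UMIs favours deep barcodes. They had medians of 484 and 508 genes against 179 and 231. The median share of other cell types' markers was 0% in both sets, and the part of mixed droplets was not tested.

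Members were also set against the definitive type. The definitive groups are small, with 8891 non-haemoglobin UMIs in the control and 26717 in the mutant, so 1 UMI there is worth 112 and 37.4 CPM. Of genes with at least 20 CPM, 57.4% in the control were more than 1.5-fold higher in members and 31.4% lower, and in the mutant 31% and 50.4%. Requiring 30 UMIs over both types gave 61.6% and 23.7%, and 41.6% and 33.5%. The all-gene median was thus 1.64 in the control and -0.59 in the mutant, and 5 mutant definitive-type barcodes but 1 control one had at least 5000 UMIs. Scaled to all UMIs, the control split turned to 332 higher and 861 lower (27.8% higher, against 64.7%), so single genes with their counts are given.

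A Malat1 UMI was found in nearly every member and in a part of the definitive barcodes. After thinning every barcode to 1000 UMIs, 99.5% (99.1 to 99.8) of control and 99.5% (99.0 to 99.7) of mutant members had a Malat1 UMI, against 50% (27.2 to 72.8) and 66.7% (47.2 to 82.7) of definitive-type barcodes. Unthinned, the shares were 100% and 99.9%, against 50% and 66.7%. Median depths were 1516 and 1688 UMIs for members and 1165 and 1247 for the definitive type. Malat1 is retained in the nucleus. In barcodes with under 10% haemoglobin 98.6% and 98.2% had a Malat1 UMI at 1000 UMIs, and in near-empty control droplets it stood at 20684 CPM. The part of free RNA in these shares was not tested. The median Malat1 share of non-haemoglobin UMIs was 8.56% and 6.72% in members and 0.146% and 2.17% in the definitive type. Ribosomal protein genes were at 15.2% and 16.8% in members and 7.59% and 6.81% in the definitive type.

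Some genes measured in members had 0 or 2 UMIs in the definitive type. Hsd3b6 was at 2389 CPM in control members with 0 UMIs in the definitive type, at least 7.08-fold higher against a floor of 3 counts. In the mutant it was at 3059 CPM against 2 UMIs, 40.9-fold (11.3 to 337.5). At 1000 UMIs, 16.5% of control and 29.7% of mutant members had an Hsd3b6 UMI (28.1% and 44.0% unthinned), against 0 of 20 and 0 of 30 definitive-type barcodes (0 and 2 unthinned), and 0.0793% and 0.165% of barcodes with under 10% haemoglobin, whose median depths were 5418 and 3572 UMIs. The 0 of 20 allows a share of up to 16.8%, which holds that of the control members, and the 0 of 30 up to 11.6%. Tuba1a, an alpha tubulin, had 0 UMIs in both definitive groups and was at 1051 and 518 CPM in members, at least 3.11-fold and 4.61-fold higher. Cited4, a transcriptional co-activator, was at 414 and 619 CPM, at least 1.23-fold and 5.51-fold higher, and Ackr3, a scavenging chemokine receptor, at 355 and 350 CPM, at least 1.05-fold and 3.12-fold.

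Rgcc, Ube2c, Tspo2 and Cd24a were among the genes lower in members. Rgcc, a cell cycle regulator, was at 19.5 CPM in control members and 1012 CPM (9 UMIs) in the definitive type, and at 33.3 and 1946 CPM in the mutant. The 9 control UMIs stood in 2 of the 20 definitive-type barcodes. With at least 80% haemoglobin, where 3 control definitive-type barcodes remain, its control log2 ratio was 1.25. Ube2c was at 104 and 3599 CPM and at 264 and 2620 CPM. Tspo2, an erythroid member of the translocator protein family, was at 124 and 1687 CPM and at 26.6 and 898 CPM. Cd24a, a surface glycoprotein, was at 176 and 1912 CPM and at 243 and 4716 CPM.

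Some red cell genes gave no common answer in the 2 libraries. Alas2 was at 2956 CPM in control members against 2362 CPM (21 UMIs) in the definitive type, a ratio of 1.25 with an interval of 0.817 to 2.02, but at 2694 against 5614 CPM in the mutant. Slc4a1 was at 717 against 225 CPM (2 UMIs) in the control, a ratio of 3.19 with an interval of 0.880 to 26.4, and at 655 against 2545 CPM in the mutant. Cpox, a haem enzyme, was at 127 against 112 CPM (1 UMI; ratio 1.13, 0.20 to 45.1) and at 175 against 3706 CPM. In the mutant, the 5 definitive-type barcodes of at least 5000 UMIs gave 15420 of the 26717 non-haemoglobin UMIs.

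Between the genotypes, the targeted gene was measured first. Prmt1 was at 31.4 CPM (37 UMIs) in control members and 46.0 CPM (83 UMIs) in mutant members, a ratio of 1.46 with an interval of 0.982 to 2.22. The part of the transcript read by the library's tags may lie outside the deleted part, so this checks neither the label nor the deletion. Of genes with at least 20 CPM, 11.6% were more than 1.5-fold higher and 2.83% lower in mutant members, and the all-gene median was 0.12 on the log2 scale. Scaled to all UMIs, 241 genes were higher and 3 lower (98.8% higher, against 80.4%) with a median of 0.36. Mutant members had a lower haemoglobin share, with medians of 67.2% against 74.0%, and more genes per barcode. Their median mitochondrial share was 1.19% against 0.758%, and summed over deep members it was 3.72% against 1.86%. Its part in the differences below was not tested.

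Division genes were higher in the mutant members. Of 22 measured G2/M genes, 20 were more than 1.5-fold higher, with a median log2 ratio of 1.25. Among members under 5000 UMIs it was 17 of 21, with a median of 1.11, beside 13.6% of all genes higher and 3.71% lower. Among members of at least 5000 UMIs it was 25 of 26, with a median of 1.48, beside 21.8% and 6.05%. A gene can pass the 20 CPM minimum through the mutant library alone and then be counted as higher, so these counts lean to higher. Control counts were low there: of 174 deep control members, unthinned, 2 had a Top2a UMI, 6 a Cenpa UMI and 10 an Mki67 UMI. Cenpa was at 81.6 CPM in control and 241 CPM in mutant members, 2.96-fold (2.37 to 3.73). Birc5, survivin, was at 40.8 and 120 CPM, and Mki67, the Ki-67 antigen, at 42.5 and 118 CPM. H2afx, a histone variant that marks DNA breaks when phosphorylated, had the highest ratio of the 16 genes named by rule, 126 against 25.5 CPM, 4.94-fold (3.36 to 7.49). In members of at least 80% haemoglobin, of which 268 control and 133 mutant ones remain, the G2/M median was -0.15.

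**Figure D4:**
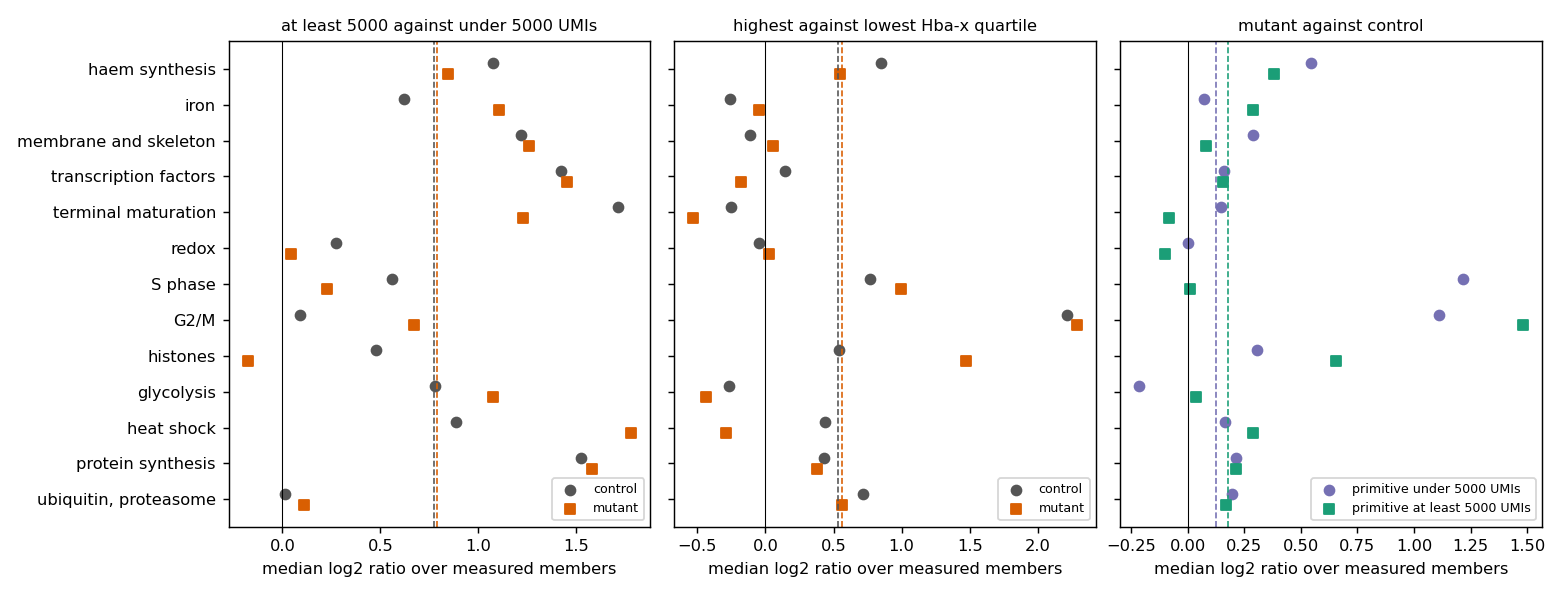
Median log2 ratios over the measured members of each gene list (y axis) are plotted for deep against shallow members, for the highest against the lowest Hba-x quartile and for mutant against control, with the median of all genes as a dashed line per set. G2/M genes lie right of the dashed lines in the quartile panel, at 2.21 and 2.29, and in the genotype panel, at 1.11 and 1.48. In the depth panel they lie at 0.09 and 0.67, and scaled to all UMIs those medians are -0.93 and -0.55.

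Tmem14c and Alad, which lie at the high Hba-x end, were also higher in the mutant. Tmem14c was at 279 CPM in control and 728 CPM in mutant members, 2.61-fold (2.31 to 2.96), and Alad at 521 and 940 CPM, 1.80-fold (1.64 to 1.98). With Slc25a37, the mitochondrial iron importer, at 1009 and 1519 CPM, they were the 3 of 15 haem genes past 1.5-fold, with a list median of 0.43, beside 11.6% of all genes and a median of 0.12. Alas2 was at 2956 and 2694 CPM. Of 15 measured red cell transcription factor genes, 2 were higher and 1 lower, with a median of 0.15. Tmem14c, Alad and most G2/M genes are also higher at the high Hba-x end within each library, and mutant members have the higher Hba-x share. How much of the genotype difference goes with that mix was not tested.

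Genes lower in the mutant members were fewer. Tspo2 was at 124 CPM in control and 26.6 CPM in mutant members, a ratio of 0.215 (0.151 to 0.299), and was lower at either depth. By the values given above it was also lower in the mutant in the small definitive type, so this direction is not particular to members. Tuba1a was at 1051 and 518 CPM, a ratio of 0.493 (0.452 to 0.537), and Eif4ebp1, a repressor of translation initiation, at 284 and 141 CPM. Ube2l6, a conjugating enzyme of the ISG15 pathway, was at 658 and 354 CPM, and Plek2, a pleckstrin family protein of red cell precursors, at 389 and 231 CPM. S100a13 was at 428 and 239 CPM and Fam220a at 207 and 119 CPM.

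For 2 of the 16 named genes the ratio depended on depth. Vim, vimentin, was at 38.2 and 108 CPM over all members, 2.81-fold, but at 12.1 CPM (9 UMIs) and 8.58 CPM (10 UMIs) among members under 5000 UMIs. Vim is abundant in mesenchymal cells, and summed mesenchymal markers were at 371 CPM in control and 291 CPM in mutant deep members. Bri3 was at 206 and 101 CPM over all members, a ratio of 0.493, but at 107 and 92.4 CPM among deep ones, a ratio of 0.866 (0.579 to 1.30). The other 14 genes kept their direction at both depths. At 80% haemoglobin Ube2c and Ccdc34 turned, with log2 ratios of -0.14 and -0.13.

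**Figure D5:**
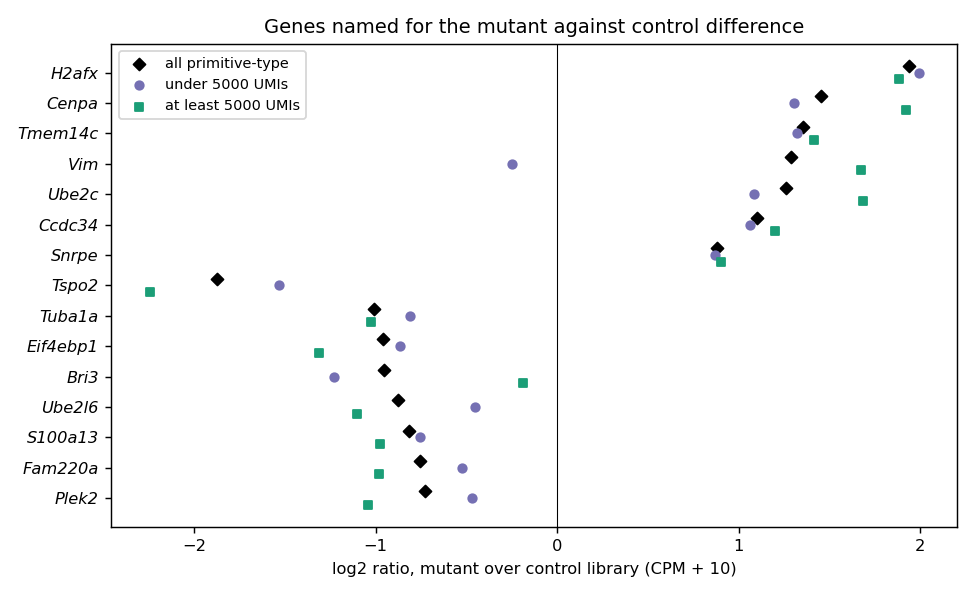
Log2 ratios of mutant to control CPM (10 CPM added to each) are plotted for 15 of the 16 genes named by rule, over all primitive-type barcodes, those under 5000 UMIs and those of at least 5000 UMIs. H2afx is the highest over all members at 1.94 and Tspo2 the lowest at -1.87. Vim lies at 1.67 among deep barcodes and at -0.25 among shallow ones.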

How the data were processed

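Per the labels, hearts of E12.5 were digested with TrypLE and run on a 10X Genomics Chromium v2 kit, 1 library per genotype. The deposited values are raw counts of UMIs for each gene in each barcode, and per the file headers Cell Ranger 3.0.2 was the tool used. Seurat stands beside it in the submitters' processing notes, and no source used here gives the genome build. The control matrix is unfiltered (6794880 barcodes, 542175 with a UMI) and the mutant matrix lists 7181 barcodes. Of 31053 genes, 99.6% have an identifier in GENCODE M21.

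Members were picked by the globin rule at 1000 UMIs, with median depths of 1516 (control) and 1688 UMIs (mutant). Counts were summed over the barcodes of a group and scaled per 1000000 non-haemoglobin UMIs. Log2 ratios had 10 CPM added, and genes and list members needed 20 CPM in one of the groups compared. Being past 1.5-fold is a size, not a test. Intervals are exact (Clopper-Pearson for shares, the binomial form for ratios of counts, Newcombe for differences of shares) at 95%. A count of 0 was set to a floor of 3 counts per group for a lower bound. Shares of barcodes with a UMI were taken after thinning to 1000 UMIs (seed 1).

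The members and all gene lists were chosen with earlier results of these data known. Genes named needed 100 CPM in one group and 30 UMIs over both, and mitochondrial, ribosomal protein, globin, Gm and Rik genes, Xist, Tsix and chromosome Y genes were left out. They are the 12 highest and 12 lowest by the weaker library, or, between genotypes, the 8 highest and 8 lowest whose definitive-type ratio was opposite or under 50% as large. Up to 4 genes per list are examples. A few genes that these rules name are not reported here. The splits by depth and by Hba-x quartile, and the rule for barcodes with G2/M transcripts, were added after the data were seen, by the same limits. Hbq1a was kept among the candidates. The computation used Python 3.11.15, numpy 2.4.6, scipy 1.17.1 and pandas 2.3.3, and was tested on simulated data with known fold changes. Alternatives changed the UMI, haemoglobin, gene and globin-mix limits, the added CPM, the scaling, thinning, free RNA subtraction, depth range and markers of other cell types.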

Additional observations from a re-analysis of the deposited data

Results flagged for a closer look

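For 5 lists the median log2 ratio had opposite signs in the 2 libraries. The difference was not tested, since each library stands alone. Between deep and shallow members, the histone list had a median of 0.48 in the control and -0.18 in the mutant. Between the highest and lowest Hba-x quartile, the heat shock list had 0.44 and -0.29, the transcription factor list 0.14 and -0.18, the membrane list -0.12 and 0.054, and the redox list -0.048 and 0.026. The last 2 pairs lie close to 0.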

How the results depend on the processing

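No paired analysis was possible because each genotype has 1 library. The haemoglobin minimum of 30%, the 5000 UMI limits and the checks of the depth and quartile splits were chosen after seeing the data. At 80% haemoglobin, 268 control and 133 mutant members and 3 and 4 definitive-type barcodes remain, 146 and 115 of those members at 5000 UMIs or more, so ratios there rest on few UMIs. The cause of each shift below was not tested except where fewer barcodes or another limit make it by construction.

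The share of haemoglobin-rich barcodes that were of the primitive type became 95.5% in the control and 96.5% in the mutant with a minimum of 500 UMIs, and 83.3% and 67.2% when the type began at 0.8. In the mutant it was 95.7% at 80% haemoglobin and 98.8% with at least 200 genes.

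The Hba-x share was higher in the mutant under each alternative run. In the control it was 26.2% with 2000 UMIs, 25.3% with 500, 24.1% at 80% haemoglobin, 27.6% with 200 genes, 26.5% from 0.8, 25.5% at 30% haemoglobin, 24.6% under 5000 UMIs, 26.2% above, and 25.04% with equal weight per barcode. In the mutant, in that order, it was 34.9%, 34.0%, 31.9%, 35.7%, 36.1%, 34.8%, 33.4%, 34.9% and 33.8%, and 34.4% without the top 6% of barcodes by markers of other cell types. The Hbb-bh1 share, also higher in the mutant under each, was 1.21% and 3.96% with 2000 UMIs, 0.978% and 2.65% at 80% haemoglobin, 1.34% and 4.33% with 200 genes, 1.38% and 4.39% at 30% haemoglobin, 1.60% and 5.51% under 5000 UMIs, 1.13% and 3.42% above, 1.58% and 5.39% with equal weight, and 1.29% and 4.25% without that top 6%. From 0.8 it was 1.38% in the control.

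Genes past 1.5-fold in both libraries numbered 725 higher and 382 lower in members than in the definitive type. At 80% haemoglobin they were 1374 and 98, scaled to all UMIs 204 were higher, and thinned to 1000 UMIs 254 were lower. Between deep and shallow members 1375 were higher and 276 lower. With 50 CPM added they were 719 and 180, scaled to all UMIs 180 and 471, at 30% haemoglobin 2346 were higher and at 80% 120 were lower. Between Hba-x quartiles 749 were higher and 130 lower. At 80% haemoglobin they were 151 and 38, with 50 CPM added 429 and 63, with 200 genes 457 were higher, and scaled to all UMIs 16 were lower. Between genotypes 307 were higher and 75 lower. At 80% haemoglobin they were 558 and 296, at 30% 535 and 204, with 50 CPM added 86 and 18, and with at least 5000 UMIs 770 and 214. The lower ones were 186 with 2000 UMIs, 167 with 200 genes, 134 with 1 CPM added, 134 thinned and 3 scaled to all UMIs.

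The G2/M median between genotypes, 1.25, was -0.15 at 80% haemoglobin. Elsewhere it was 1.12 with 200 genes, 1.41 from 0.8, 1.15 at 30% haemoglobin, 1.49 with 1 CPM and 0.69 with 50 CPM added, 1.14 scaled to all UMIs, 1.33 without mitochondrial and ribosomal genes, 1.03 with equal weight, 1.14 thinned, 1.11 under 5000 UMIs and 1.48 above. Unthinned, Malat1 was found in 100% and 99.9% of members.

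Medians within 1.5-fold, such as G2/M by depth in the control (-0.93 scaled to all UMIs), also changed sign and are not all given here. Other list medians past 1.5-fold that changed sign were glycolysis by depth in the control (-0.71 scaled to all UMIs), G2/M by depth in the mutant (-0.25 with 2000 UMIs, -0.55 scaled to all UMIs), heat shock by depth in the mutant (-0.92 at 80% haemoglobin), histones by quartile in the mutant (-1.64 at 80%) and S phase by quartile. The latter gave -0.086 at 80%, -0.18 with 200 genes and -0.38 within 1200 to 2000 UMIs in the control, and -0.50 within that range in the mutant. Named genes that changed sign at 80% haemoglobin, as log2 ratios, were Rgcc 1.25, E2f2 2.64, Cdca3 0.35 and Ctcf 2.36 between types in the control, Cenpf 0.69 and Cdca3 0.69 in the mutant, Ptn -1.87, Cenpx 0.94 and Mettl26 1.66 by depth in the control, and Lars2 -0.39, Zfp787 2.16, Smim1 0.23 and Mettl26 1.94 in the mutant. By quartile they were Anp32b -3.64, Slc20a1 0.76 and Ube2o 4.40 in the control, and Anp32b -6.21, Nudt4 1.39, H2-T23 0.42 and Tmcc2, Fbxo30 and Zfand5, each 5.07, in the mutant. Between genotypes they were Ube2c -0.14 and Ccdc34 -0.13. Ctcf between types in the mutant was 1.53 thinned and 1.77 under 5000 UMIs, Ptn by depth in the control -1.35 without the top 6%, and Vim between genotypes -0.25 under 5000 UMIs.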

Other observations

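Definitive-type barcodes held an uneven rest of embryonic transcript. Hbb-y was at 0 in 11 of 20 control and 10 of 30 mutant barcodes and reached at most 2 and 9 UMIs. Hbb-bh1 was at 0 in 19 of 20 control barcodes, and 15 UMIs of it stood in the other one. In the mutant, 8 of 30 had at least 5 Hbb-bh1 UMIs, up to 278, and 7 of those had no more than 2 Hbb-y UMIs, a mix unlike that of the primitive type, in which Hbb-y exceeds Hbb-bh1. That pattern was picked after its values were seen. Car1, carbonic anhydrase 1, had 0 UMIs in the members of either library and 3 and 11 UMIs in the definitive types, and was also picked after its values were seen. Car2, its paralogue, was at 4153 and 5736 CPM in members and 7086 and 10817 CPM in the definitive types. The barcodes between the types had Hba-x shares of 5.48 to 12.2% in the control and 10.6 to 23.6% in the mutant.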
